A study of Bos taurus with 6 samples.

Results

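Apolipoproteins are the protein parts of the particles that carry fat through blood, and the genes described here encode the apolipoproteins and assembly factors of hepatic lipoproteins. The set holds 10 genes, APOB, MTTP, APOA1, APOA2, APOA4, APOA5, APOC3, APOE, APOH and TM6SF2, each taken as the row of the count table that carries its gene symbol. These were 10 of 36577 loci in the table, and all 10 passed the filter on low counts, as did 15576 loci in all. The lowest count of any of the 10 genes in any library was 18, for APOA5.

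RNA was sequenced from primary bovine hepatocytes of wild-type genotype, isolated from healthy female calves aged 1 day that had been fasted. All cells received palmitic acid (PA), a common saturated fatty acid, at 400 µmol/L. In 3 libraries PA was given with 200 µmol/L 3-IAA (indole-3-acetic acid, a microbial product of tryptophan), and in 3 libraries with DMSO, the solvent. Lipid accumulation, stress of the endoplasmic reticulum (ER) and SIRT3 are named in the title of the study, and the comparison asked which transcripts differed when 3-IAA accompanied PA. Cells without PA were not among these samples, so each difference is relative to PA with DMSO. Whether replicates stem from different calves or different cultures is not stated in the labels, so p-values measure only the spread between these libraries, which may be technical.

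The liver builds very-low-density lipoprotein (VLDL) in the ER. The microsomal triglyceride transfer protein, whose large subunit is MTTP, loads lipid onto the long apoB chain while apoB is being made, and apoB that is not lipidated is degraded. The exchangeable apolipoproteins (APOA1, APOA2, APOA4, APOA5, APOC3 and APOE) join particles later and steer lipases, receptors and cholesterol transport. Ruminant liver is known for exporting VLDL slowly compared with rodent liver, and fat accumulates in it when fatty acid supply is high.

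Total counts per library were between 21159388 and 22562450 with PA + 3-IAA and between 16580723 and 20765358 with PA + DMSO. One library, PA + DMSO replicate 3, did not sit with the rest of its group. Principal component 1 of log2 CPM (counts scaled to library size) took 85.4% of the variance of 14011 genes. On it, PA + 3-IAA libraries were at 38.5 to 39.0, PA + DMSO replicates 1 and 2 at -50.6 and -50.7, and PA + DMSO replicate 3 at -14.9. Results are therefore also given without that library. The hepatocyte label was set against markers, and markers of other liver cells were present too. Hepatocyte markers summed to at least 24614 TPM (a level scaled to library size and transcript length) in every library. The largest sum of another liver cell list in any library was 2365 TPM, for stellate cell and fibroblast markers. ALB averaged 4463 ± 222 TPM with PA + 3-IAA and 2499 ± 313 TPM with PA + DMSO (SD, n = 3 each). Mitochondrially encoded transcripts took 5.43% to 5.92% of counts with PA + 3-IAA and 5.56% to 5.86% with PA + DMSO.

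With 3-IAA, 6 of the 10 genes rose, APOA4 fell, and MTTP, APOA5 and APOE did not pass the test (edgeR's quasi-likelihood test, Benjamini-Hochberg adjusted p under 0.05 over all genes tested). The risers were APOB, APOA1, APOA2, APOC3, APOH and TM6SF2. Differences in transcript level were common in this comparison: of all genes tested, 51.2% passed, 25.4% as higher and 25.8% as lower with 3-IAA. With library-total scaling, 30.9% were higher and 21.3% lower. The median log2 fold change was 0.44 over the 10 genes and 0.00 over all genes tested. Without PA + DMSO replicate 3 the counts were again 6 higher and 1 lower, against 60.5% of all genes passing, 30.9% as higher and 29.7% as lower.

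By TPM the groups did not overlap for any of the 10 genes: 8 lay higher in every PA + 3-IAA library than in every PA + DMSO library, and APOA4 and MTTP lay lower. Over all genes tested, 61.0% did not overlap, 35.2% higher and 25.7% lower with 3-IAA. By CPM, APOA5 and APOE overlapped and 8 genes did not, against 62.5% of all genes.

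APOB and MTTP, the core of particle assembly, did not move together. APOB encodes the structural protein of VLDL, 1 molecule to a particle. It had 783, 670.1 and 806 TPM in the PA + 3-IAA libraries, against 241, 244 and 386 TPM in the PA + DMSO libraries. The groups were well apart, and PA + DMSO replicate 3 was the highest of its group. APOB was 2.47-fold higher with 3-IAA (95% interval 1.80 to 3.39), with a log2 fold change of 1.31 (SE 0.19, edgeR with Benjamini-Hochberg adjustment, adjusted p = 0.00156). This was the largest fold change of the 10 genes in either direction, and without PA + DMSO replicate 3 it was 2.95-fold. Over all genes tested, 9.93% passed the test with a change of at least 2-fold, 4.53% as higher.

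MTTP had 2.0, 1.79 and 2.0 TPM with PA + 3-IAA, against 2.33, 2.01 and 2.68 TPM with PA + DMSO. The groups were close, and the lowest PA + DMSO library lay just above the highest PA + 3-IAA libraries. The counts behind these levels were 118, 102 and 111 with PA + 3-IAA and 125, 87 and 142 with PA + DMSO. The log2 fold change was -0.34 (SE 0.14, adjusted p = 0.0600 by edgeR with Benjamini-Hochberg adjustment), and the 95% interval of the fold, which is not adjusted for the number of genes, ran from 0.639 to 0.975 (unadjusted p = 0.0321). Without PA + DMSO replicate 2 the log2 fold change was -0.43 and passed, with an adjusted p of 0.0410 by edgeR; without PA + DMSO replicate 3 it was -0.23, with an adjusted p of 0.188.

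Because a ratio of levels within a library does not depend on how libraries are scaled, the balance of both transcripts was also read directly. The APOB to MTTP ratio of TPM was 391, 374 and 403 with PA + 3-IAA, against 104, 121 and 144 with PA + DMSO. The groups did not overlap and the ratio was 3.19-fold higher with 3-IAA. The exact permutation test gave p = 0.1 (two-sided, n = 3 each), the smallest this design allows, and 0.114 after Benjamini-Hochberg adjustment over 8 ratios.

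MTTP works as a dimer with protein disulfide isomerase, encoded by P4HB, which also folds other secreted proteins. P4HB, named here after its values were seen, had 529, 531 and 525 TPM with PA + 3-IAA, against 1689, 1644 and 1147 TPM with PA + DMSO. It fell 2.95-fold (log2 -1.56, SE 0.14, edgeR adjusted p = 0.00013). P4HB was thus far more abundant than MTTP in every library of both groups.

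TM6SF2 encodes a membrane protein of the ER and Golgi that in humans and mice promotes the loading of lipid onto VLDL. It had 14.5, 17.2 and 17.1 TPM in the PA + 3-IAA libraries, against 8.06, 9.19 and 10.6 TPM in the PA + DMSO libraries, with no overlap. It rose 1.68-fold (log2 0.75, SE 0.13, adjusted p = 0.00135 by edgeR). Relative to APOB, however, TM6SF2 was 1.5-fold lower with 3-IAA.

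**Figure D1:**
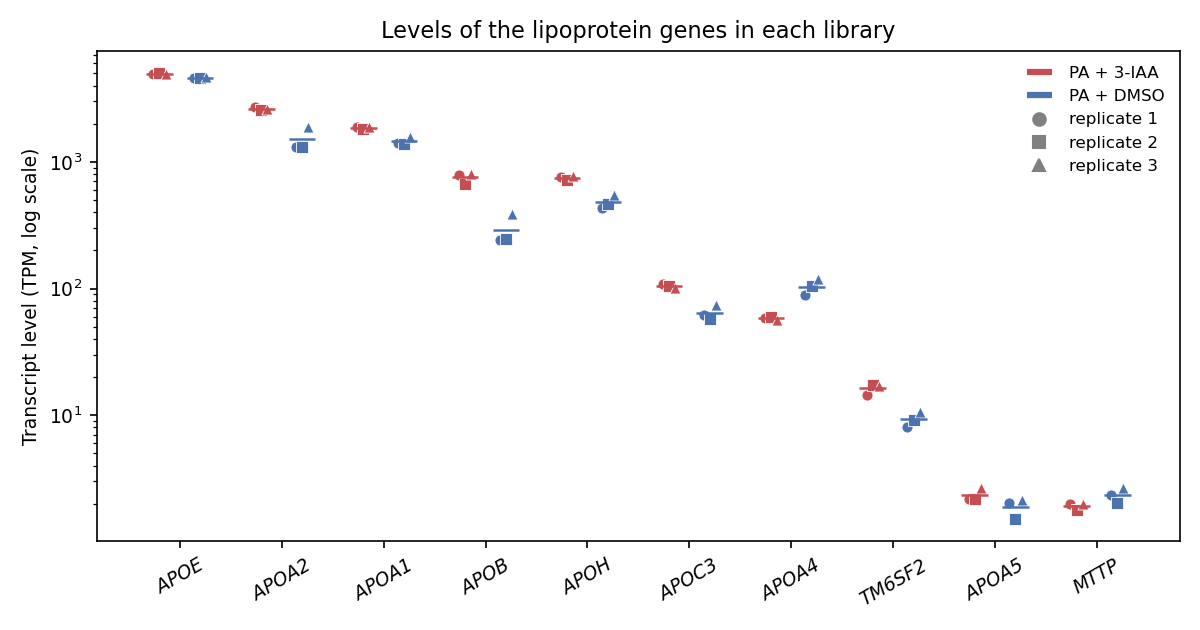
Transcript level (TPM, log axis) of the 10 genes in each library, with PA + 3-IAA on the left and PA + DMSO on the right of each pair; points are libraries and bars are group means. APOB stands at 753 TPM against 290 TPM on average and its groups are far apart, whereas the MTTP and APOA5 groups lie close together at about 2 TPM.

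The transcripts of high-density lipoprotein (HDL) proteins rose by modest amounts. APOA1, the main HDL protein and the acceptor of cellular cholesterol, had 1895, 1805 and 1879 TPM with PA + 3-IAA, against 1411, 1373 and 1560.3 TPM with PA + DMSO. All PA + 3-IAA libraries were above all PA + DMSO libraries. APOA1 was 1.24-fold higher with 3-IAA (log2 0.31, SE 0.07, edgeR adjusted p = 0.00379), the smallest fold among the risers.

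APOA2, the second major HDL protein, had 2732, 2547 and 2623 TPM with PA + 3-IAA, against 1303, 1316 and 1898 TPM with PA + DMSO. PA + DMSO replicate 3 lay about midway between its own group and the PA + 3-IAA group. APOA2 rose 1.66-fold (log2 0.73, SE 0.15, edgeR adjusted p = 0.00504), and 1.92-fold without that library. The APOA2 to APOA1 ratio averaged 1.42 ± 0.0231 with PA + 3-IAA and 1.03 ± 0.160 with PA + DMSO (SD, n = 3 each). APOA2 was thus above APOA1 in every PA + 3-IAA library, while in PA + DMSO replicates 1 and 2 it was below.

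Among apolipoproteins that act on triglyceride-rich particles, APOC3 rose and APOA5 did not pass the test. APOC3 encodes an inhibitor of lipoprotein lipase and of hepatic particle uptake. It had 109, 105 and 100.5 TPM with PA + 3-IAA, against 61.5, 57.9 and 74.6 TPM with PA + DMSO, without overlap. The rise was 1.52-fold (log2 0.61, SE 0.10, edgeR adjusted p = 0.00129).

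APOA5, which in humans and mice favours triglyceride clearance, had 2.17, 2.18 and 2.65 TPM with PA + 3-IAA, against 2.04, 1.52 and 2.14 TPM with PA + DMSO. The lowest PA + 3-IAA library was barely above the highest PA + DMSO library, and on the CPM scale the groups overlapped. Counts were 35, 34 and 40 with PA + 3-IAA and 30, 18 and 31 with PA + DMSO, the lowest of the 10 genes. The log2 fold change was 0.22 (SE 0.22, edgeR adjusted p = 0.438), and the 95% interval of the fold, 0.823 to 1.65, leaves room for a change in either direction.

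APOE, a ligand of the LDL receptor family, was the most abundant of the 10 transcripts in both groups. It had 4951, 5025 and 4947 TPM with PA + 3-IAA, against 4609, 4611 and 4648 TPM with PA + DMSO. TPM values did not overlap, but the gap was small, and CPM values overlapped (2917, 3089 and 2983 CPM with PA + 3-IAA, 2863, 2929 and 2926 CPM with PA + DMSO). By edgeR the log2 fold change was 0.04 (SE 0.06, adjusted p = 0.559), with a 95% interval of the fold from 0.941 to 1.13. On TPM, limma gave a difference of 0.11 on the log2(TPM + 1) scale with an adjusted p of 0.0392 after a filter on low TPM, and 0.0530 without that filter. With the filter, the median difference over all genes on that scale was itself 0.06.

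APOH (beta-2-glycoprotein I), a phospholipid-binding plasma protein carried in part on lipoproteins, had 756, 720.3 and 769 TPM with PA + 3-IAA, against 429.9, 461 and 548 TPM with PA + DMSO. The groups did not overlap. APOH rose 1.49-fold (log2 0.57, SE 0.09, edgeR adjusted p = 0.000662).

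APOA4 was the 1 gene of the set that fell. It encodes an apolipoprotein of the intestine in most mammals that is also induced in the fat-laden liver of mice. It had 58.3, 59.8 and 56.6 TPM with PA + 3-IAA, against 89.2, 104 and 118 TPM with PA + DMSO. The PA + 3-IAA libraries were tightly grouped and all lay below the PA + DMSO libraries. The fall was 1.68-fold (log2 -0.75, SE 0.10, edgeR adjusted p = 0.000339), and 1.56-fold without PA + DMSO replicate 3.

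PA + DMSO replicate 3 took a different place for APOA4 and MTTP than for the risers. On a log2(TPM + 1) scale where 0% is the mean of PA + DMSO replicates 1 and 2 and 100% is the PA + 3-IAA mean, it lay at 41.1% for APOB, 53.1% for APOA2, 39.4% for APOA1, 39.6% for APOC3, 40.1% for APOH and 31.5% for TM6SF2. For APOA4 it lay at -40.7%, that is, farther from the PA + 3-IAA libraries than the mean of the other PA + DMSO libraries. MTTP, which did not pass the test and whose groups lay close together, was at -193%, APOE at 10.7% and APOA5 at 68.7%. Over all genes that rose, the median was 36.8% (quartiles 19.9% and 49.7%), and 10.4% of them (412 of 3963) had a position below 0%. Over all genes that fell, the median was 35.1%, and 10.6% of them (426 of 4015) had a position below 0%. This position was computed after the data were seen and is a description without a test.

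**Figure D2:**
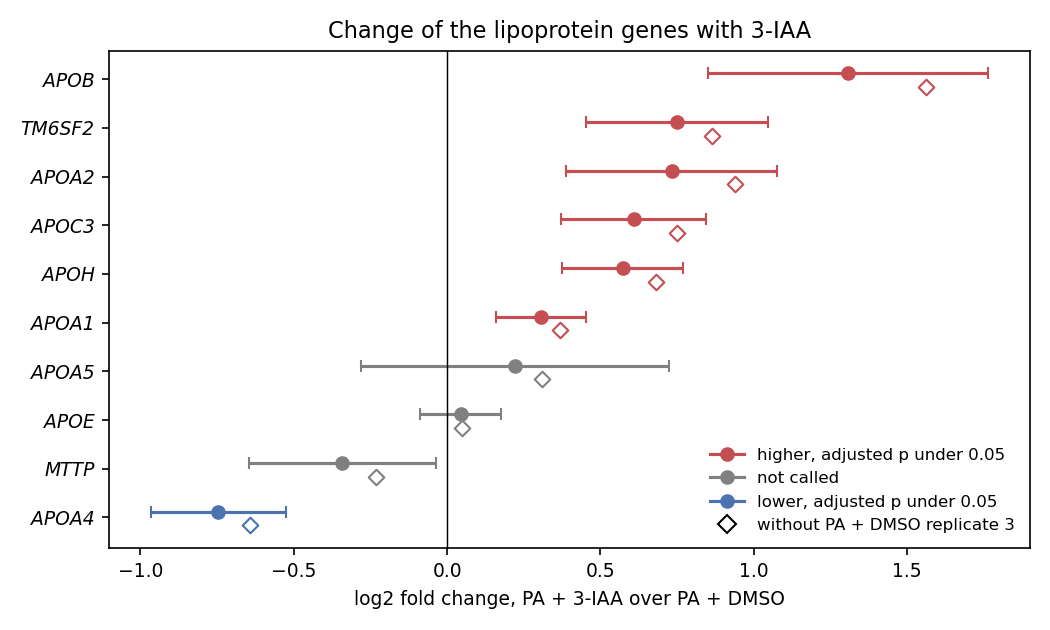
Log2 fold change of each gene, PA + 3-IAA over PA + DMSO, from all 6 libraries (filled circles with 95% intervals from edgeR, not adjusted for the number of genes) and without PA + DMSO replicate 3 (open diamonds). Red marks genes higher, blue lower and grey not passing at adjusted p under 0.05; APOB has the largest value, 1.31 with all libraries and 1.56 without that library.

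The authors' deposited table, made on the same libraries and therefore no independent evidence, listed APOB (log2 1.30), APOA2 (0.73), APOC3 (0.61) and TM6SF2 (0.75) as up and APOA4 (-0.75) as down. It marked APOA1 (0.30, adjusted p = 0.000106) and APOH (0.57, adjusted p = 3.60e-08) as stable despite their adjusted p. All marked genes of the set had a log2 change of 0.61 or more in size, so the marks appear to need a size too. Of the 13259 genes in that deposited table of the authors, 1478 were up (11.1%) and 1537 were down (11.6%). These shares are not like for like with the edgeR shares above, which rest on adjusted p alone.

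The order of the transcripts by level shifted with 3-IAA. With PA + 3-IAA the order of mean TPM was APOE, APOA2, APOA1, APOB, APOH, APOC3, APOA4, TM6SF2, APOA5 and MTTP, and neighbours did not overlap except APOB and APOH. With PA + DMSO it was APOE, APOA2, APOA1, APOH, APOB, APOA4, APOC3, TM6SF2, MTTP and APOA5, with overlap between APOA2 and APOA1 and between MTTP and APOA5. APOC3 was thus above APOA4 in every PA + 3-IAA library and below it in every PA + DMSO library, and APOB reached the level of APOH only with 3-IAA.

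Summed over the 10 genes, the level was 11303, 10954 and 11204 TPM with PA + 3-IAA, against 8158, 8181 and 9248 TPM with PA + DMSO. The sum was 1.31-fold higher with 3-IAA (exact permutation test, two-sided, p = 0.1, the smallest possible with n = 3 each), and the groups did not overlap. APOE made up 44.6% of the sum with PA + 3-IAA and 54.4% with PA + DMSO on average. APOB made up 6.75% with PA + 3-IAA and 3.37% with PA + DMSO, and APOA2 23.6% with PA + 3-IAA and 17.5% with PA + DMSO. The share of APOA1 was 16.7% with PA + 3-IAA and 16.98% with PA + DMSO.

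**Figure D3:**
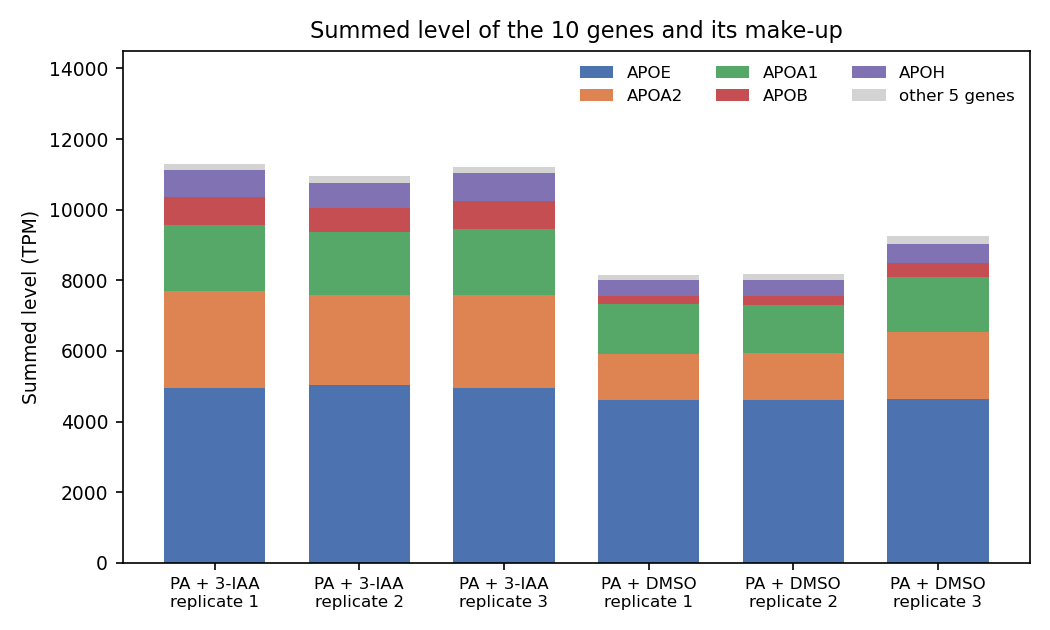
Summed TPM of the 10 genes in each library, stacked by gene, with the PA + 3-IAA libraries left of the PA + DMSO libraries. The APOE part is nearly level across libraries, while the APOB and APOA2 parts are larger in the PA + 3-IAA libraries; PA + DMSO replicate 3 has the highest total of its group, at 9248 TPM.

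Ratios between the genes were tested as a family of 8, each with APOB or APOA1 in it, so they are not independent. Of all single genes tested, 61.0% did not overlap by TPM, and the share over all gene pairs was not computed. Of the 8 ratios, 7 did not overlap between groups. Each of these 7 had an exact permutation p of 0.1 (two-sided, n = 3 each), the smallest possible, and an adjusted value of 0.114, so none can pass 0.05. The ratio of APOA4 to APOA1 was 0.0307, 0.0332 and 0.0301 with PA + 3-IAA, against 0.0632, 0.0758 and 0.0757 with PA + DMSO, 2.28-fold lower. The ratio of APOE to APOB averaged 6.65 ± 0.738 with PA + 3-IAA and 16.7 ± 4.02 with PA + DMSO (SD, n = 3 each), 2.46-fold lower. The ratio of APOH to APOB was 1.69-fold lower, and that of APOC3 to APOA1 was 1.27-fold higher. The ratio of APOA5 to APOA1 overlapped between the groups (exact permutation p = 0.9, n = 3 each).

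**Figure D4:**
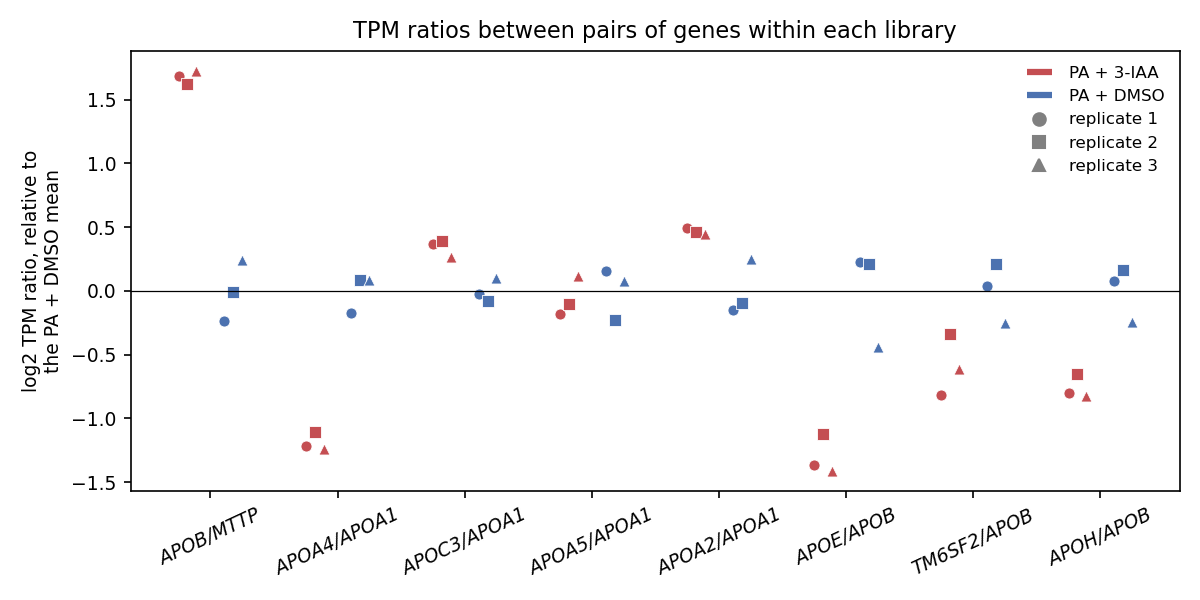
Ratios of TPM between genes in each library (log2 axis, each ratio relative to its PA + DMSO mean), PA + 3-IAA left of PA + DMSO; points are libraries. APOB to MTTP is the ratio farthest up, 3.19-fold, and APOA4 to APOA1 and APOE to APOB are the ratios farthest down.

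APOA1, APOC3, APOA4 and APOA5 lie side by side in the RefSeq annotation of ARS-UCD2.0, in the order APOA5, APOA4, APOC3 and APOA1. Genes of this cluster went different ways: APOC3 and APOA1 rose, APOA4, which is placed between APOA5 and APOC3, fell, and APOA5 did not pass. The annotated span of APOA4 overlaps those of APOC3 and APOA1. APOA1 and APOA4 had fractional counts in 6 of 6 libraries, so their reads were shared out by estimation. APOC3 had fractional counts in 0 of 6 libraries and so gave no sign of such sharing. Outside the cluster, APOB had fractional counts in 3 libraries. A fraction does not show which loci shared the reads, and how strand was used in counting is unknown. Any split of reads between APOA1 and APOA4 is therefore uncertain and was not tested. Whether any APOA4 reads were counted as APOC3 was not tested.

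None of the 6 genes flanking the cluster, 3 on each side, passed as higher by edgeR with TMM scaling. On the APOA5 side, ZPR1 had 66.8 ± 3.96 TPM with PA + 3-IAA and 88.2 ± 2.89 TPM with PA + DMSO (SD, n = 3 each) and fell (log2 -0.48, SE 0.07, edgeR adjusted p = 0.000365). On the APOA1 side, SIK3, a salt-inducible kinase, had 8.47 ± 0.694 TPM with PA + 3-IAA and 12.3 ± 0.731 TPM with PA + DMSO and fell (log2 -0.57, SE 0.08, edgeR adjusted p = 0.00039). BUD13 (log2 -0.16) and PAFAH1B2 (-0.08) did not pass. CADM1 (0.27, edgeR adjusted p = 0.0505) and SIDT2 (-0.22, adjusted p = 0.0411) were at the threshold: CADM1 passed in 8 alternatives that kept all 6 libraries (adjusted p 0.0246 to 0.0498) and without PA + DMSO replicate 3 (adjusted p = 1.66e-06). SIDT2 failed when any 1 of the other 5 libraries was left out (adjusted p 0.0635 to 0.153). With all 6 libraries, SIDT2 also failed by DESeq2 (adjusted p = 0.0857) and on TPM (limma adjusted p 0.115 to 0.174). The same held for edgeR with library-total scaling (adjusted p = 0.139) or without a filter (0.0598).

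A second group of neighbours in the same annotation holds APOE, APOC4 and APOC2. Here APOC2, the activator of lipoprotein lipase, rose 1.54-fold (log2 0.63, SE 0.10, edgeR adjusted p = 0.00123), with 287 ± 15.8 TPM with PA + 3-IAA and 179.7 ± 27.1 TPM with PA + DMSO (SD, n = 3 each). APOC4 did not pass (log2 0.07, edgeR adjusted p = 0.650), nor did APOE.

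Hepatocyte markers as a whole were also higher with 3-IAA, and in bulk RNA a larger share of cells of a type and more RNA per cell cannot be told apart. Of 13 hepatocyte markers, 12 rose and 0 fell, against 25.4% and 25.8% of all genes tested. Their median log2 fold change was 0.49. Their summed level ranged from 35555 to 40013 TPM with PA + 3-IAA and from 24614 to 27555 TPM with PA + DMSO. Expressed per 1000 TPM of these markers, a measure added after the data were seen, APOB averaged 20.0 ± 1.15 with PA + 3-IAA and 11.2 ± 2.44 with PA + DMSO (SD, n = 3 each), 1.82-fold higher. TM6SF2 was 1.21-fold higher on that measure. APOA4 was 2.58-fold lower, MTTP 1.76-fold lower, APOE 1.36-fold lower and APOA1 1.13-fold lower, so APOA1 and, by TPM, APOE changed direction. APOA2, APOA5, APOC3 and APOH overlapped between the groups. The smallest exact permutation p is again 0.1 with n = 3 each, 0.167 after adjustment over the 10 genes.

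Markers of other liver cells were also present, with the highest sums for stellate cell and fibroblast markers. Summed macrophage markers ranged from 139 to 151 TPM with PA + 3-IAA and 83.8 to 103 TPM with PA + DMSO, with 4 of 9 tested higher and 0 lower. Endothelial markers summed to 53.4 to 61.9 TPM with PA + 3-IAA and 18.9 to 37.0 TPM with PA + DMSO, with 5 of 7 higher. Stellate cell and fibroblast markers summed to 2276 to 2365 TPM with PA + 3-IAA and 1312 to 1803 TPM with PA + DMSO, with 3 of 8 higher and 2 lower. Cholangiocyte markers summed to 1332 to 1390 TPM with PA + 3-IAA and 673 to 858 TPM with PA + DMSO, with 2 of 6 higher and 1 lower. These counts stand beside 25.4% higher and 25.8% lower over all genes tested. The median log2 fold change was 0.28 for macrophage markers and 1.10 for endothelial markers. It was -0.01 for stellate cell and fibroblast markers and -0.02 for cholangiocyte markers. The stellate cell and fibroblast list and the cholangiocyte list thus did not rise as a whole, despite higher sums. No marker was at 0 in all libraries, and TIMD4, STAB2, CLEC4G, RGS5, LRAT and CFTR were under 1 TPM in every library. The part of these differences in the apolipoprotein results was not tested.

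Other apolipoproteins and HDL-borne proteins rose with the set. Of 9 tested genes in this list, 7 were higher, 0 were lower and 2 did not pass, with a median log2 fold change of 0.54. All genes tested had 25.4% higher and 25.8% lower. CLU (apolipoprotein J) rose 1.41-fold (log2 0.49, SE 0.07, edgeR adjusted p = 0.000369) and PON3, an HDL-bound lactonase, 1.31-fold (adjusted p = 0.000933). APOF, an apolipoprotein that modulates lipid transfer in humans, rose 2.81-fold (adjusted p = 0.00106) at low levels, 4.49 ± 0.523 TPM with PA + 3-IAA and 1.53 ± 0.647 TPM with PA + DMSO (SD, n = 3 each). APOM was at the threshold and its call was lost on leaving out either of PA + 3-IAA replicates 1 and 2, or PA + DMSO replicate 1 (adjusted p 0.0534 to 0.0565).

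Genes of particle export from the ER fell in the main, opposite to APOB. COPII coat proteins and cargo receptors carry VLDL from the ER to the Golgi. Of 18 tested export genes, 13 were lower, 2 were higher and 3 did not pass (median log2 fold change -0.41). The shares over all genes tested were 25.8% lower and 25.4% higher. PREB, the exchange factor that starts COPII budding, fell 2.40-fold (log2 -1.26, SE 0.09, edgeR adjusted p = 6.4e-05). TMEM41B, a scramblase needed in mice for lipoprotein export, fell 1.94-fold, the coat subunits SEC24D 2.20-fold and SEC31A 1.68-fold. SURF4, a cargo receptor for apoB particles in mice, named after its values were seen, fell to 111 ± 3.12 TPM with PA + 3-IAA, against 201 ± 27.0 TPM with PA + DMSO (SD, n = 3 each; log2 -0.93). SAR1B, the COPII GTPase mutated in human chylomicron retention disease, and MIA3 (TANGO1) passed as lower with small changes (log2 -0.16 and -0.18), and each call was lost when any 1 library other than PA + DMSO replicate 3 was left out. With library-total scaling the values were -0.09 for SAR1B (edgeR adjusted p = 0.189) and -0.11 for MIA3 (0.142), with a replicate block the adjusted p was 0.0698 for SAR1B and 0.0662 for MIA3, and on TPM MIA3 was at -0.03 (limma adjusted p = 0.601).

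The 2 export genes that rose, named after their values were seen, are known for roles in lipid loading. CIDEB, a lipid droplet protein needed in mice for VLDL lipidation, had 236, 272 and 225 TPM with PA + 3-IAA, against 78.6, 70.7 and 162 TPM with PA + DMSO. PA + DMSO replicate 3 was well above its group but below all PA + 3-IAA libraries. CIDEB rose 2.58-fold (log2 1.37, SE 0.26, edgeR adjusted p = 0.00746). PLA2G12B, which in mice supports VLDL expansion, rose as well (log2 0.55, SE 0.08, adjusted p = 0.000678).

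Genes for folding and disposal of apoB in the ER fell by far larger amounts. Of 12 tested, 9 were lower, 1 was higher and 2 did not pass, and the list had its median log2 fold change at -1.33. Shares over all genes tested were 25.8% lower and 25.4% higher. The chaperone HSPA5 had 773 ± 9.81 TPM with PA + 3-IAA and 14949 ± 3957 TPM with PA + DMSO (SD, n = 3 each), 20.2-fold lower. PDIA4 fell 19.3-fold, the retrotranslocation factor DERL1 2.71-fold and the lectin chaperone CANX 2.33-fold. In HSPA5, PDIA4 and CANX, PA + DMSO replicate 3 was the lowest of its group, nearest to the PA + 3-IAA libraries. These genes serve many secreted proteins besides apoB. VCP, the 1 gene higher (log2 0.20), lost its call when any library other than PA + DMSO replicate 3 was left out (edgeR adjusted p 0.0505 to 0.0943); without that replicate 2 genes were higher.

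**Figure D5:**
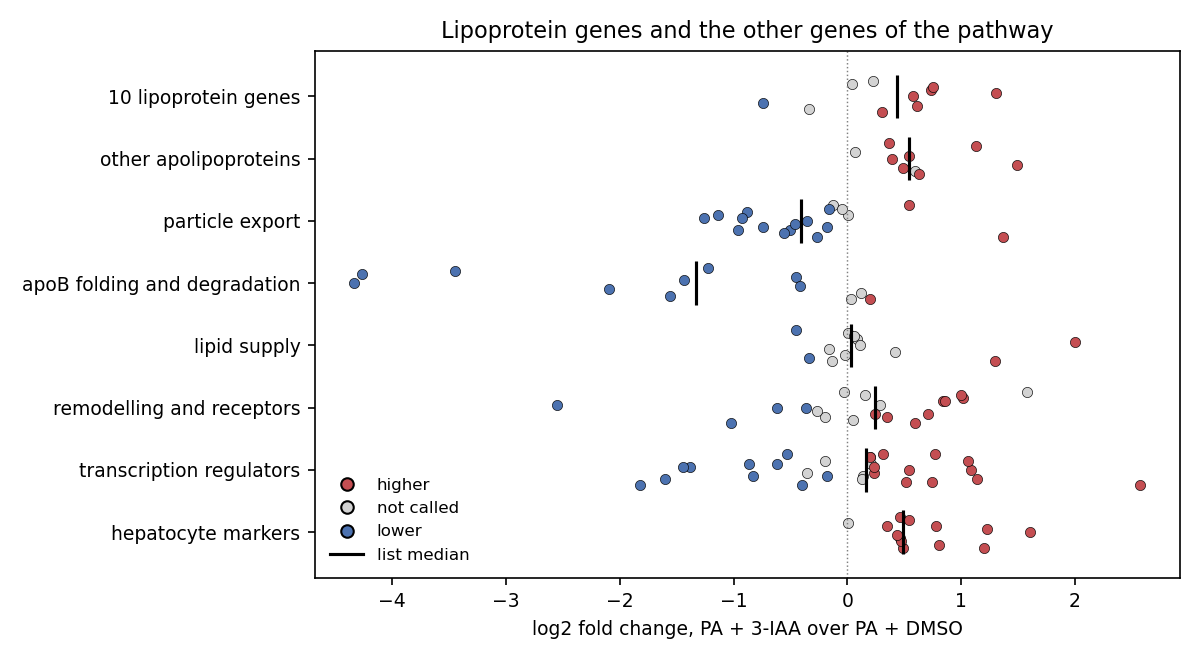
Log2 fold changes, PA + 3-IAA over PA + DMSO, of the 10 genes, each pathway list and the hepatocyte markers; each point is a gene, red if higher, blue if lower and grey if it did not pass the test, and bars are list medians. The apolipoproteins lie mostly above 0, the export genes mostly below it, and the folding and degradation list has the lowest median, -1.33.

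Most lipid supply genes did not pass: 2 of 12 were higher, 2 were lower and 8 did not pass (median log2 fold change 0.03). By comparison, 51.2% of all genes tested passed, 25.4% as higher and 25.8% as lower. AADAC, an esterase that mobilises stored lipid for VLDL in rodents, rose to 8.18 ± 0.585 TPM with PA + 3-IAA, against 3.21 ± 1.16 TPM with PA + DMSO (SD, n = 3 each), 2.45-fold (edgeR adjusted p = 0.000395). DGAT2, the last enzyme of triglyceride synthesis that handles new fatty acids, had 27.2, 27.4 and 24.9 TPM with PA + 3-IAA, against 3.92, 2.90 and 11.9 TPM with PA + DMSO. It was 4.01-fold higher (log2 2.0, SE 0.52, edgeR adjusted p = 0.0289). That call was lost when any 1 library other than PA + DMSO replicate 3 was left out (adjusted p 0.0613 to 0.0801), and without that replicate the log2 fold change was 2.88. DGAT1, its partner that reuses fatty acids, fell 1.36-fold (log2 -0.45, edgeR adjusted p = 0.00419). On TPM the DGAT1 value was -0.25 to -0.23 and did not pass (limma adjusted p 0.101 to 0.161). LPIN2, a phosphatidate phosphatase, fell as well (log2 -0.33).

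Of 19 genes for particle remodelling and uptake, 8 were higher, 4 were lower and 7 did not pass (median log2 fold change 0.25). Among all genes tested, 51.2% passed, 25.4% as higher and 25.8% as lower. ABCA1, the exporter that loads cholesterol onto APOA1, rose 1.51-fold (log2 0.59, SE 0.08, edgeR adjusted p = 0.000441). ANGPTL8, a secreted regulator of lipoprotein lipase in humans and mice, fell 5.86-fold (edgeR adjusted p = 0.000808). The receptor VLDLR fell 1.53-fold (adjusted p = 8.04e-05).

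Of 28 listed regulators of apolipoprotein genes, 12 were higher, 10 were lower and 6 did not pass (median log2 fold change 0.17). The share of all genes tested that passed was 51.2%, with 25.4% higher and 25.8% lower. HNF4A, a nuclear receptor that drives many apolipoprotein genes in liver, had 23.0, 20.4 and 21.1 TPM with PA + 3-IAA, against 9.41, 8.97 and 10.8 TPM with PA + DMSO. It was 2.09-fold higher (log2 1.06, SE 0.08, edgeR adjusted p = 6.4e-05). NR1H4 (FXR), the bile acid receptor, fell 2.72-fold (adjusted p = 6.66e-05), the coactivator PPARGC1A 3.53-fold (adjusted p = 7.2e-05) and the nuclear receptor RORA 1.78-fold (adjusted p = 8.34e-05). These are transcript levels and say nothing of the activity of the factors.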

How the data were processed

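Polyadenylated RNA of 6 libraries was sequenced on a NovaSeq X Plus, per the labels' protocols. Per the submitters' processing notes, cutadapt 1.9, HISAT2 2.2.1, RSEM and DESeq2 were used. What genome build, annotation and strand setting served is not given in the sources used here. Expected counts and TPM per library and locus, with a length, are as the authors deposited them. The authors' comparison table gives, for each gene, the log2 fold change, its standard error and Wald statistic (scores), the normalized base mean (a signal), the p-value and its adjusted form; it was read only for comparison. The count table came with 2 emptied lines, which were not analysed here.

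Expected counts were rounded and tested in R 4.3.3 with edgeR 4.0.16 (filterByExpr, TMM, two-sided robust quasi-likelihood test; Benjamini-Hochberg adjustment over 15576 genes; threshold 0.05). The SE is |log2 fold change| over √F, and 95% intervals use edgeR's degrees of freedom. Single values were compared by exact permutation over libraries. Scripts were checked on simulated data. At these depths, 3 counts equal 0.133 to 0.181 CPM, for counting error only. Alternatives were DESeq2 1.42.0, limma 3.58.1 (voom, and log2 TPM with pseudocounts of 1 and 0.1 with a TPM filter of 1 in 3 libraries, or without a filter), RLE and library-total scaling, no filter, a strict filter (every library at 1 CPM or more), a replicate block and leaving out each library.

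Gene identities came from the symbols in the files, and neighbours from RefSeq (ARS-UCD2.0), where 10 of 10 genes matched by symbol; sequences were not used here. The genes and lists were chosen with earlier results of these data known. Named genes were all 10, up to 4 passing genes of each list with the smallest unadjusted p, and 3 genes on each side of the APOA1 cluster. One gene that this rule takes is not reported here. Chosen after seeing the data were the hepatocyte-marker ratio and the position of PA + DMSO replicate 3.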

Additional observations from a re-analysis of the deposited data

How the results depend on the processing

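The 7 genes of the set that passed the test kept their direction and call in all 16 alternatives: for APOB the log2 fold change ranged from 1.18 to 1.56 and for APOA4 from -0.85 to -0.64. APOE passed only on filtered TPM, at 0.11 with adjusted p = 0.0392 (pseudocount 1) and 0.0376 (pseudocount 0.1) by limma; without the filter it was 0.0530. Leaving out 1 library at a time gave 1 to 2 lower genes of the set, MTTP between -0.43 and -0.23, 2986 to 4918 higher and 3285 to 4726 lower genes in all, 0 to 2 higher folding genes and 1 to 3 higher lipid supply genes. APOC4, not called in any case, ranged from -0.0037 (without PA + DMSO replicate 1) to 0.16 (without PA + 3-IAA replicate 1). Higher folding genes numbered 2 with library-total scaling and on TPM with a pseudocount of 1 or 0.1. Higher lipid supply genes numbered 1 without a filter, and lower ones 1 in all 3 TPM settings. The causes were not tested. Library-total scaling moved the median of all genes by 0.07 on the log2 scale, and filtered TPM (pseudocount 1) moved it by 0.06. On TPM (pseudocount 1), 30.7% of all genes were higher and 21.3% lower, and without a filter on counts 32.0% passed in all.

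Deviations of same-numbered libraries from their group means had correlations of 0.018, 0.029 and 0.022. Yet 6 of 6 libraries correlated best with their own number. The PA + DMSO deviations include the distance of replicate 3 from its group, so these values cannot decide whether the numbers mark pairs. With a replicate block, 6 genes of the set were higher and 1 lower, 3722 and 3767 of all genes were higher and lower, and 1 lipid supply gene was higher. Of 40 other named genes, 31 kept their direction and call in every alternative; the others were APOC4, APOM, CADM1, DGAT1, DGAT2, MIA3, SAR1B, SIDT2 and VCP. Depth limits MTTP and APOA5 most, with no more than 142 and 40 counts in a library.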
